A study of Mus musculus with 2 samples.

Results

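The genes described here are 6 genes that mark muscle satellite cells, the stem cells that lie between a skeletal muscle fiber and its basement membrane. They were Pax7, Myf5, Myod1, Cdh15, Calcr and Chodl, taken by name out of 17938 genes listed in the count tables, of which 16150 had a UMI (a unique molecular identifier, which marks 1 captured transcript) in a kept well. All 6 were listed for both plates. The first 5 are called the satellite genes in what follows, and Chodl is set against them, because Chodl was also found in cells with tendon genes.

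In muscle, the paired-box transcription factor Pax7 maintains satellite cells, and the basic helix-loop-helix factors Myf5 and Myod1 commit them to the muscle lineage and bind DNA at E-boxes. Cdh15 encodes M-cadherin, which joins satellite cells to the fiber, and Calcr encodes the calcitonin receptor, which is known from quiescent satellite cells. Chodl encodes chondrolectin, a membrane protein with a C-type lectin domain.

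The cells were single Tomato+ cells sorted from the tibia and femur periosteum of female mice, in which αSMACreER (a tamoxifen-inducible Cre driven by the smooth muscle actin promoter) had switched on the Ai9 Tomato reporter. All mice received 2 doses of tamoxifen at 75 mg/kg, and periosteum was digested for 30 min. Mice of the genotype αSMACreER/Ai9/Col2.3GFP, aged 10.3 and 14.4 weeks, gave the 2-day and 6-week cells, after chases of 2 and 43 days. For the 13-week cells the mice were aSMACreER/Ai9/R26-M2rtTA/TetOP-H2B-GFP, aged 20.1 weeks, with a chase of 96 days and doxycycline for 5 weeks, so that at 13 weeks strain, doxycycline, age and chase cannot be told apart. Each time point was 1 pool of 2 to 3 mice, so no test between time points was possible, and all 95% intervals below (Clopper-Pearson for shares of wells, Poisson for pooled UMIs) cover counting error only.

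Wells with at least 200 genes were kept, 503 in all, of which 181 were 2-day wells, 189 were 6-week wells and 133 were 13-week wells. They held 445796 UMIs, with medians of 795, 672 and 726 UMIs per well. The 2-day and 13-week wells shared a plate and the 6-week wells were on another, and 216 well barcodes were used on both plates, each for a different cell. Wells were called fibrous where Thbs4, Fmod and Tnmd, which encode tendon and ligament matrix or membrane proteins, summed to 3 UMIs or more, and were split by Rgs5, a marker of pericytes and vascular smooth muscle cells. This gave 174 fibrous wells without Rgs5, 105 wells with Rgs5 that were not fibrous, 13 wells with both and 211 with neither.

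For Chodl and Myf5 the RefSeq start was the annotated start of the gene, and the sequences upstream of both are shown. Each run is the 250 bases before the RefSeq start of the gene, in GRCm38.p6, read 5′ to 3′ on the strand of the gene. Capitals mark the E-box letters CANNTG, which read the same on both strands and were searched without overlaps.
Chodl, chr16:78930698-78930947, plus strand: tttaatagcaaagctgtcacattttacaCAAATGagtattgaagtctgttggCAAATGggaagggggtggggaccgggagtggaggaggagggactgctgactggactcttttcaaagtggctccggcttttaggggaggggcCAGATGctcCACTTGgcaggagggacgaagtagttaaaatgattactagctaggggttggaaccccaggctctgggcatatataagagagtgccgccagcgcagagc
Myf5, chr10:107486135-107486384, minus strand: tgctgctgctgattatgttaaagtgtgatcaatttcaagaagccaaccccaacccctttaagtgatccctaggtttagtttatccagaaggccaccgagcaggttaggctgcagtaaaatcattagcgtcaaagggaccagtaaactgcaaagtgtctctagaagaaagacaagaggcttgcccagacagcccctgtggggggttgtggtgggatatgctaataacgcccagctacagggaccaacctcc
The Chodl run held 4 CANNTG matches, 222, 198, 107 and 98 bases before the start, and the letters TATATAA 29 bases before it. The Myf5 run held 0 matches. Of 32851 RefSeq promoter runs of this length, 66.2% held at least 1 CANNTG, 3.84% held 4 or more and 3.04% held TATATAA. These matches describe the letters only and say nothing of binding. The run of Cdh15 held 3 CANNTG matches, that of Pax7 0 and those of Calcr 0 and 1. Their RefSeq starts differed from the annotated ones. Myod1, Pax7, Cdh15 and Calcr are named without a sequence.

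In the mm10 annotation, the 6 genes are protein coding and lie on 6 chromosomes. Pax7 is at chr4:139737062-139833528 and Myf5 at chr10:107482908-107486134, both on the minus strand. Myod1 is at chr7:46376474-46379099 and Chodl at chr16:78930948-78951733, both on the plus strand. Cdh15, at chr8:122847966-122867397 on the plus strand, overlaps the predicted gene Gm20388 on the same strand, so that reads in their shared part could be counted for either. Calcr, at chr6:3685680-3764714 on the minus strand, contains Mir653 and Mir489. None of the overlapping genes was listed in the count tables.

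The 5 satellite genes were sparse, and Chodl was not. Pax7 was seen in 35 of the 503 wells (6.96%, 95% interval 4.89 to 9.55), with 52 UMIs and at most 4 in a well. Cdh15 was seen in 24 wells with 26 UMIs, Myf5 in 13 wells with 14 UMIs, Myod1 in 10 wells with 12 UMIs and Calcr in 8 wells with 8 UMIs. Most of these detections rested on a single UMI, in 22 of the 35 Pax7 wells, 22 of the 24 Cdh15 wells, 12 of the 13 Myf5 wells, 8 of the 10 Myod1 wells and all 8 Calcr wells. Chodl was seen in 122 wells (24.3%, 20.6 to 28.2), with 320 UMIs, up to 19 in a well, and with a single UMI in 55 wells. With each well thinned to 300 UMIs, leaving out 20 shallower wells (6, 7 and 7 by time), the expected shares were 3.70% for Pax7, 1.94% for Cdh15, 1.19% for Myf5, 0.893% for Myod1, 0.672% for Calcr and 14.7% for Chodl. The UMIs of 5 genes were backed by 6.43 to 7.42 reads each, near the 6.07 of all genes, whereas those of Cdh15 had 2.77. On the mixed plate, where most Cdh15 UMIs lay, all genes had 5.02 reads per UMI at 2 days and 5.50 at 13 weeks.

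A well with at least 1 UMI of the 5 satellite genes is called a satellite well below. There were 65 such wells, 12.9% of all (10.1 to 16.2), and 7.18% after thinning. Pax7 was in 35 of them, Cdh15 in 24, and together the 5 genes gave 112 UMIs. The median depth was 825 UMIs in satellite wells and 718 in the others.

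The satellite genes were rare in the fibrous wells, which held 3 or more fibrous UMIs. Of 187 fibrous wells, 3 were satellite wells (1.60%, 0.332 to 4.62), against 62 of 316 other wells (19.6%, 15.4 to 24.4), a difference of 18.02 percentage points (12.8 to 23.0). Fibrous wells were deeper than the others, with medians of 787 and 695.5 UMIs, and the thinned shares were 0.623% and 11.2%. The difference had the same direction within each time point, with 1 of 70 fibrous wells against 28 of 111 other wells at 2 days, 2 of 68 against 20 of 121 at 6 weeks and 0 of 49 against 14 of 84 at 13 weeks. The size depended on the threshold, since 31 of the 62 satellite wells outside the class held 1 or 2 fibrous UMIs, and with wells called fibrous from 1 UMI the shares were 10.5% of 323 and 17.2% of 180, a difference of 6.70 points (0.204 to 13.7). Myf5, Myod1 and Cdh15 each had 0 UMIs in the 187 fibrous wells, a count of 0 that allows a share of up to 1.60% taken as 3 counts, or 1.95% by Clopper-Pearson. Pax7 was in 2 fibrous wells and Calcr in 1, with a single UMI each, and these shares are the background against which the other classes are read.

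**Figure D1:**
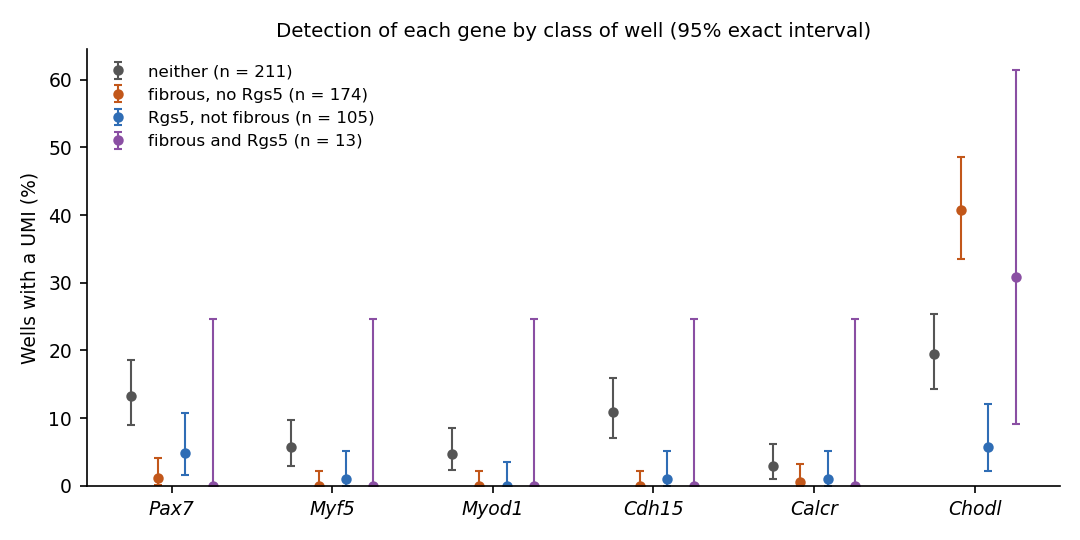
Share of wells with at least 1 UMI of each gene, in percent, in wells with neither fibrous genes nor Rgs5, in fibrous wells, in Rgs5 wells and in wells with both; points are shares and bars 95% exact binomial intervals. The 5 satellite genes were highest in the 211 wells with neither, where Pax7 was in 13.3%, whereas Chodl was highest in the 174 fibrous wells without Rgs5, at 40.8%.

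Rgs5 wells held a smaller share of satellite wells than the wells with neither. Among wells that were not fibrous, 8 of 105 with Rgs5 were satellite wells (7.62%, 3.35 to 14.5) against 54 of 211 without (25.6%, 19.8 to 32.0), a difference of 17.97 points (9.04 to 25.7). It was 22.3 points (3.69 to 35.9) at 2 days. The intervals held 0 at 6 weeks (13.9, -1.19 to 26.0) and at 13 weeks (16.8, -1.15 to 31.6). Rgs5 wells were shallower, with a median of 571 UMIs against 734, and the thinned shares were 3.29% and 14.997%. Pooled over fibrous and other wells the difference was 8.03 points (1.01 to 13.5), and its interval took in 0 without the wells that were both fibrous and Rgs5 wells (-0.452 to 13.0). Each of the 8 wells with both held a single satellite UMI, 5 of Pax7 and 1 each of Myf5, Cdh15 and Calcr. These 8 wells also held other perivascular genes at 24.5 UMIs per 10000 over the 8 genes of that list other than Rgs5, against 38.4 in the 97 Rgs5 wells without a satellite UMI and 4.34 in the 54 satellite wells with neither Rgs5 nor fibrous genes. Their part in the 8 detections was not tested.

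Acta2, the smooth muscle actin gene whose promoter drives the Cre, had a UMI in 12 of 65 satellite wells (18.5%) and in 95 of 438 other wells (21.7%), a difference of -3.23 points (-12.7 to 8.94). Its pooled level was lower in satellite wells, at 3.10 UMIs per 10000 (1.81 to 4.97) against 6.04 (5.29 to 6.86), and among wells neither fibrous nor Rgs5 it was 2.82 against 7.54. The highest well held 5 Acta2 UMIs among satellite wells and 28 among the others.

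Some of the satellite genes were detected together, in 19 of the 65 satellite wells. Of the 65 satellite wells, 46 held a UMI of 1 of the genes, 14 of 2 genes, 4 of 3 and 1 of 4, and the 19 wells with 2 or more were 9 at 2 days, 5 at 6 weeks and 5 at 13 weeks. None of these 19 was fibrous and none held Rgs5. The well with 4 genes was a 6-week well of 1226 UMIs, in which Pax7, Myf5, Myod1 and Cdh15 summed to 8 UMIs. Of the 4 wells with 3 genes, 3 held Pax7, Myf5 and Cdh15, and 1 held Pax7, Myod1 and Cdh15.

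Cdh15 was seen in 8 of 35 Pax7 wells (22.9%, 10.4 to 40.1) and in 16 of 468 others (3.42%, 1.97 to 5.49), a difference of 19.4 points (6.83 to 36.8). The median depth of the Pax7 wells was 715 UMIs and that of the others 728, and the thinned shares were 10% and 1.34%. By time, the shared wells were 5 of 14 Pax7 wells at 2 days, 2 of 13 at 6 weeks and 1 of 8 at 13 weeks, against 11 of 167, 2 of 176 and 3 of 125 of the wells without Pax7.

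Myf5 kept closest to Pax7, with Pax7 in 8 of the 13 Myf5 wells (61.5%, 31.6 to 86.1) against 27 of 490 wells without Myf5 (5.51%). Their phi coefficient of detection, a correlation of presence and absence over 503 wells of unequal depth, was 0.35, which made each the gene most like the other among 6551 genes seen in 10 or more wells. Myf5 and Cdh15 shared 5 wells. The factors Myf5 and Myod1 shared 1 well, and Myod1 was with Pax7 in 4 of its 10 wells and with Cdh15 in 3. Calcr shared 1 of its 8 wells with each of Pax7, Myf5 and Cdh15 and 0 with Myod1, and 3 of the 8 held another satellite gene, against 15 of 35 for Pax7 and 11 of 24 for Cdh15. Calcr was in 3 of 60 wells with another satellite gene and in 5 of 443 without. That difference was 3.87 points (-0.355 to 12.8), an interval that holds 0. The intervals of shares for genes seen in 10 or fewer wells were wide, 0.316 to 52.7% for Pax7 in the 8 Calcr wells, so an order among these pairs was not detectable at this depth.

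**Figure D2:**
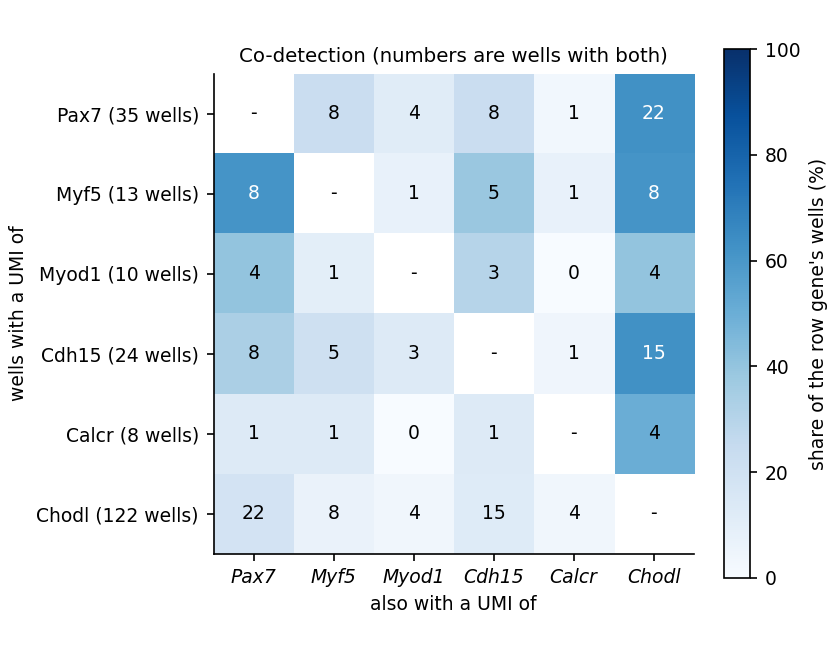
Each cell counts the wells that held the gene of the row together with the gene of the column, and its color gives that count as a percentage of the wells of the row gene. Pax7 and Chodl shared 22 wells, 22 of 35 for Pax7 but 22 of 122 for Chodl, whose bottom row is pale.

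The intervals of the 3 time points overlapped for each of the 6 genes. Satellite wells were 29 of 181 at 2 days (16.0%, 11.0 to 22.2), 22 of 189 at 6 weeks (11.6%, 7.44 to 17.1) and 14 of 133 at 13 weeks (10.5%, 5.88 to 17.03). On the plate that these shared, the 13-week minus 2-day difference was -5.50 points (-13.2 to 2.72), an interval that holds 0. Pax7 was in 14, 13 and 8 wells (7.73%, 6.88% and 6.02%), and Myf5 in 4, 5 and 4 wells. Myod1 was in 4, 5 and 1 wells and Calcr in 3, 3 and 2.

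Cdh15 had the widest gap between time points among the satellite genes. It was in 16 wells at 2 days (8.84%, 5.14 to 14.0), 4 at 6 weeks (2.12%, 0.580 to 5.33) and 4 at 13 weeks (3.01%, 0.825 to 7.52), with 17, 5 and 4 UMIs. The 13-week minus 2-day difference was -5.83 points (-11.4 to 0.01) on the same plate, and the 6-week minus 2-day difference was -6.72 points (-12.1 to -1.82) between plates. After thinning the shares were 3.48%, 0.969% and 1.22%. Chodl was in 42, 46 and 34 wells (23.2%, 24.3% and 25.6%), and the 13-week share exceeded the 2-day share by 2.36 points (-7.55 to 12.6).

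**Figure D3:**
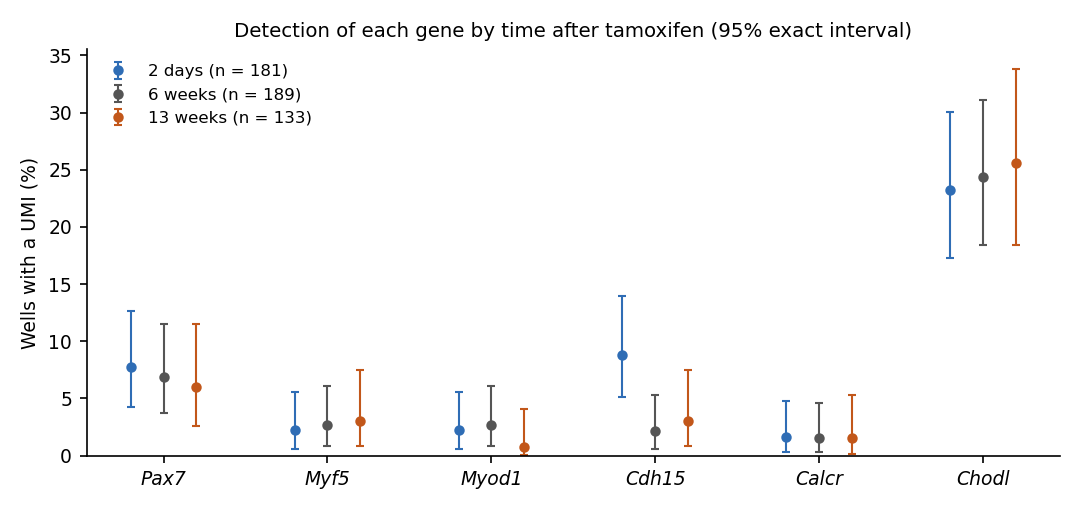
Share of wells with at least 1 UMI of each gene, in percent, at 2 days, 6 weeks and 13 weeks, with 95% exact binomial intervals. Cdh15 was in 8.84% of wells at 2 days against 2.12% and 3.01% later, and the intervals of the 3 time points overlap for every gene.

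Chodl followed both the satellite genes and the fibrous wells, in separate wells. Of the 122 Chodl wells, 33 were satellite wells that were not fibrous, 74 were fibrous wells without a satellite UMI, 1 was both and 14 were neither. In UMIs the split was 63, 237, 1 and 19 of 320. Among the 75 fibrous wells with Chodl, Pax7, Myf5, Myod1 and Cdh15 had 0 UMIs and Calcr had 1.

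On the satellite side, Chodl was in 34 of 65 satellite wells (52.3%, 39.5 to 64.8) and in 88 of 438 others (20.1%, 16.4 to 24.2), a difference of 32.2 points (18.8 to 45.3). With fibrous wells set aside, it was in 33 of 62 satellite wells (53.2%, 40.1 to 66.0) and in 14 of 254 others (5.51%, 3.05 to 9.08), and the difference was 47.7 points (34.1 to 60.7). These satellite wells were deeper, with a median of 828.5 UMIs against 662.5, and the thinned shares were 28.6% and 2.89%. By gene, Chodl accompanied 22 of 35 Pax7 wells (62.9%), 15 of 24 Cdh15 wells (62.5%), 8 of 13 Myf5 wells (61.5%), 4 of 8 Calcr wells and 4 of 10 Myod1 wells. In the wells without the gene, the Chodl share was between 21.4% (Pax7) and 23.9% (Myod1). Outside the fibrous wells, Calcr was more frequent in Chodl wells than in others by 4.90 points (-0.640 to 16.1) and Myod1 by 6.28 (-0.375 to 18.2). Both of these intervals hold 0. Wells with 2 or more satellite genes held Chodl in 14 of 19 cases (73.7%, 48.8 to 90.9) and wells with 1 in 20 of 46 (43.5%, 28.9 to 58.9), with thinned shares of 37.0% and 23.7%.

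By time, Chodl was in 16 of 28 satellite wells that were not fibrous at 2 days, 12 of 20 at 6 weeks and 5 of 14 at 13 weeks, against 3 of 83, 5 of 101 and 6 of 70 of the wells with neither. In points, the 2-day difference was 53.5 (32.5 to 72.1), the 6-week one 55.05 (30.3 to 76.2) and the 13-week one 27.1 (2.43 to 56.8). Without the fibrous wells set aside, the 13-week difference was 11.3 points (-13.2 to 41.4), since 23 fibrous wells with Chodl then counted among the others.

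On the fibrous side, with satellite wells set aside, Chodl was in 74 of 184 fibrous wells (40.2%, 33.1 to 47.7) and in 14 of 254 others (5.51%), a difference of 34.7 points (26.7 to 42.6) and thinned shares of 26.0% and 2.89%. The share climbed with the fibrous genes, from 6 of 149 wells without a UMI of Thbs4, Fmod or Tnmd (4.03%) and 8 of 105 with 1 or 2 (7.62%) to 15 of 65 with 3 to 9 (23.1%) and 59 of 119 with 10 or more (49.6%). Satellite wells held Chodl in 16 of 31 wells without a fibrous UMI (51.6%), in 17 of 31 with 1 or 2 (54.8%) and in 1 of the 3 with 3 or more, too few to compare with the climb. The satellite side held Chodl more often than the fibrous side by 13.0 points (-2.08 to 27.7), an interval that holds 0, and the thinned shares were 28.6% and 26.0%. The direction was not the same at all times, since the 2-day wells gave a difference of 23.8 (0.32 to 45.2) points, the 6-week wells 17.6 (-9.57 to 41.7) and the 13-week wells -11.2 (-38.5 to 21.3). Their pooled Chodl levels were 12.1 (9.28 to 15.5) and 14.1 (12.4 to 16.1) UMIs per 10000, and the highest wells held 7 and 19 UMIs.

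**Figure D4:**
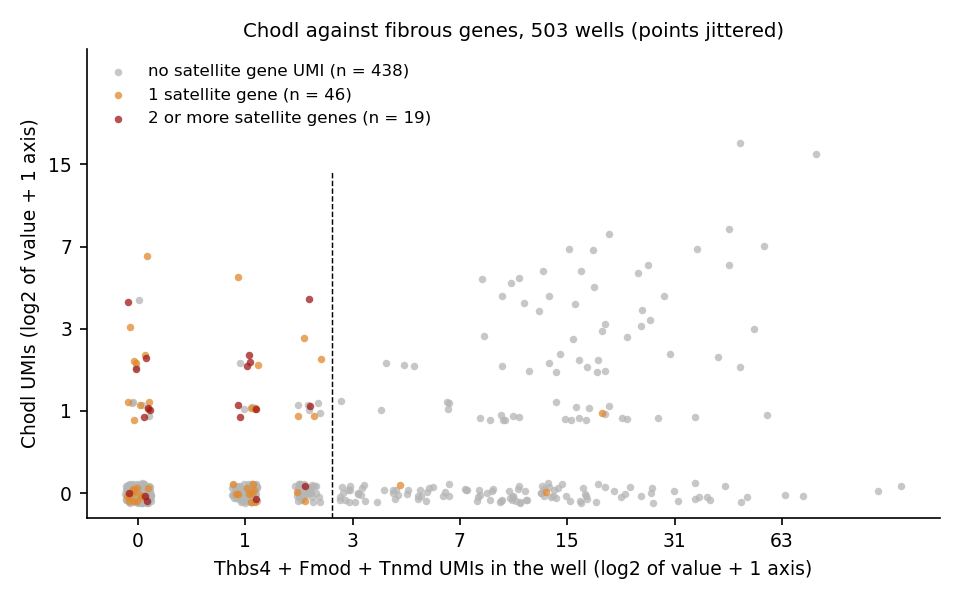
Each point is 1 of the 503 wells, with its UMIs of Thbs4, Fmod and Tnmd summed on the horizontal axis and its Chodl UMIs on the vertical axis, both on a log2 scale of the value plus 1 and jittered; the dashed line marks the threshold of 3 fibrous UMIs. Chodl wells with satellite genes lie left of the line except 1, and those without lie mostly to its right.

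The pooled Chodl level of fibrous wells was higher in the later pools than in the 2-day pool, while the share with Chodl differed less. In fibrous wells without a satellite UMI, Chodl had 52 UMIs in 23 of 69 wells at 2 days, 87 in 28 of 66 at 6 weeks and 98 in 23 of 49 at 13 weeks. The pooled levels were 7.45 (5.56 to 9.77), 16.0 (12.8 to 19.7) and 22.5 (18.3 to 27.5) UMIs per 10000. The 13-week level was 3.03 times the 2-day level (2.14 to 4.32) on the same plate, and 2.51 times (1.75 to 3.63) without the well of 19 UMIs. The shares of wells were 33.3% (22.4 to 45.7), 42.4% (30.3 to 55.2) and 46.9% (32.5 to 61.7), and overlapped. On the satellite side the levels were 13.6, 11.7 and 8.93 UMIs per 10000, with intervals that overlapped. Tnmd, for which the wells had been chosen in part, stood at 42.5, 48.2 and 37.3 UMIs per 10000 in the same fibrous wells. Of the genes most like Chodl, Col22a1 was at 7.88, 7.35 and 11.96, Cilp at 18.5, 28.7 and 19.6, Postn at 19.9, 25.2 and 29.2 and Ptx4 at 5.73, 6.25 and 8.28 UMIs per 10000.

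**Figure D5:**
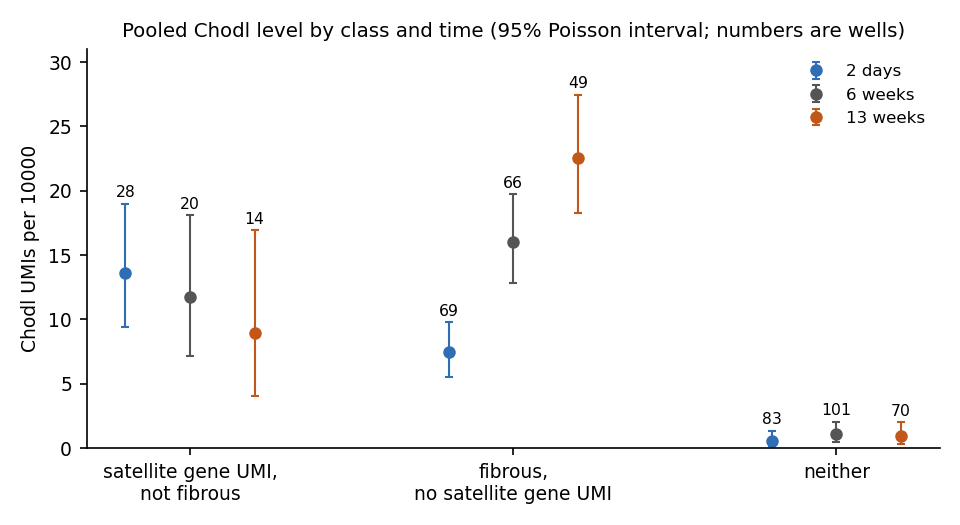
Pooled Chodl UMIs per 10000 UMIs at each time point in satellite wells that were not fibrous, in fibrous wells without a satellite UMI and in wells with neither; bars are 95% Poisson intervals and the numbers above them count wells. In fibrous wells the level was 7.45 at 2 days and 22.5 at 13 weeks, whereas wells with neither stayed between 0.528 and 1.08.

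Chodl was weak in the 14 wells with neither. Of them, 11 held a single Chodl UMI, 8 held 1 or 2 fibrous UMIs, just under the threshold, 5 held Cilp and 3 held Rgs5. Gsn, the gelsolin gene, was in 12 of the 14, against 59.8% of all wells without a satellite UMI. Cilp, which encodes a matrix protein of cartilage, was in 64.1% of the fibrous wells without a satellite UMI and in 6.45% of the satellite wells that were not fibrous. A list of 27 satellite-associated genes, 26 of them listed in the tables, stood at 25.5 UMIs per 10000 in these wells (16.7 to 37.4), against 8.59 (6.60 to 11.0) in the fibrous Chodl wells and 48.7 (41.2 to 57.3) in the Chodl wells on the satellite side.

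The satellite-associated genes bear on whether the label of the 6 genes holds in these cells. Between satellite wells and all other wells, a gene was called higher or lower where its pooled level per 10000 differed by 2-fold or more, among genes with 20 or more UMIs. Of 3793 genes, 10.9% were higher and 22.5% lower. Of the 11 satellite-associated genes with enough UMIs, 5 were higher and 1 was lower, and the median ratio was 1.75 against 0.824 over all genes. Peg3, an imprinted zinc finger gene expressed in muscle stem cells, had 47 UMIs in 27 of 65 satellite wells and 28 in 23 of 438 others, a ratio of 11.98 (7.35 to 19.9). It was in 16 of 29 satellite wells at 2 days, 5 of 22 at 6 weeks and 6 of 14 at 13 weeks, against 12 of 152, 10 of 167 and 1 of 119 of the others.

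The other 4 higher genes were Sdc4, a heparan sulfate proteoglycan of satellite cells (ratio 5.10), Des, the muscle intermediate filament desmin (3.24), the adhesion molecule Vcam1 (3.01) and the Notch target Heyl (2.38). Vcam1 and Heyl had 8 UMIs each in satellite wells, against 19 and 24 in the others, so their ratios are uncertain. Sdc3 was the lower one (0.25, 0.00624 to 1.54), with 1 UMI in satellite wells and 28 elsewhere. Des was seen in 12 satellite wells, of which 6 were 2-day and 6 were 6-week wells, and in none of the 8 that held Rgs5. Some of the list is shared with vessels, where Notch3, Heyl and Des are also expressed, and the list stood at 20.4 UMIs per 10000 in the Rgs5 wells without a satellite UMI.

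Genes of the list with too few UMIs for a call were also concentrated in satellite wells. Tenm4, a teneurin, had 12 UMIs in satellite wells and 4 in the others (ratio 21.4, 6.49 to 91.1). Fgfr4, a receptor for fibroblast growth factors, had 9 and 3 UMIs, and Chrdl2, a secreted BMP antagonist, had 7 and 2. Asb5 had 11 and 6, Megf10, a receptor that keeps satellite cells from differentiating, had 9 and 8, and Itga7, the integrin subunit that binds laminin around the fiber, had 5 and 12 (2.97, 0.821 to 9.07). By side alone, 21 of 26 genes of the list had the higher level in satellite wells, against 35.8% of all 16150 genes with a UMI and 46.2% of the 5856 genes with 5 to 19 UMIs. Met, Cxcr4 and Sox8 were among the genes of the list with 0 UMIs in satellite wells, and Pax3 was not listed.

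Satellite wells with Chodl carried more of this list than those without. Among satellite wells that were neither fibrous nor Rgs5 wells, the list stood at 51.2 UMIs per 10000 (42.9 to 60.5) in 30 wells with Chodl and at 31.7 (24.2 to 40.7) in 24 without. The 6-week levels were 57.2 (42.5 to 75.5) and 8.57 (2.78 to 20.004), the 2-day levels 51.7 (40.4 to 65.2) and 39.3 (27.3 to 54.6), and the 13-week levels 37.0 (21.2 to 60.2) and 46.5 (28.8 to 71.0). The order thus held at 2 time points, with overlapping intervals at 2 days, and was the opposite at 13 weeks. The number of satellite genes went with the same list, at 53.8 (43.2 to 66.1) in wells with 2 or more genes and 32.3 (26.9 to 38.6) in wells with 1. The 39 wells with a single satellite UMI stood at 27.6 (22.1 to 34.0), against 12.5 (11.4 to 13.6) in wells without one. By time, such wells were at 37.5 (28.2 to 48.8) against 13.1 at 2 days and at 33.4 (20.1 to 52.2) against 10.6 at 13 weeks, but the 14 of 6 weeks were at 12.2 (6.65 to 20.4) against 13.4.

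Of 7 genes of later muscle differentiation with enough UMIs, 0 were higher by 2-fold or more and 4 were lower in satellite wells, with a median ratio of 0.19. By share of wells, Mef2c and Cdkn1c (1.54% against 8.45% each) and Myl1 (1.54% against 4.11%) were lower too, while Tnnt1, the last of the 4, was in 4.62% against 2.97%, with 113 UMIs in 13 of the other wells. The 8 genes of the list with fewer than 20 UMIs had 8 UMIs in satellite wells and 44 in the others, a pooled ratio of 1.30 (0.528 to 2.79), and Chrna1, a subunit of the muscle acetylcholine receptor, was in 4 of 65 and 4 of 438 wells. Myog, the factor of differentiating myocytes, had 1 UMI in satellite wells, and its other 9 UMIs lay in 1 well. Of 10 skeletal muscle fiber genes with enough UMIs, 0 were higher and 8 were lower by level. The summed level of all 14 genes of that list was 6.57 UMIs per 10000 in satellite wells and 25.1 in the others, in 1 of which it reached 2122. By share of wells the genes went both ways, at 10.8% against 14.4% for Acta1, 9.23% against 8.90% for Mb, 7.69% against 4.57% for Tnnc2 and 1.54% against 3.88% for Tnni2. Of 3 cycling genes with enough UMIs, Top2a (4.08) and Pcna (2.20) were higher, Top2a with 8 UMIs in 4 of 65 wells, 5 of them in 1 well, and Mki67 was in 1 satellite well.

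Lists of other cell types differed. Against the 22.5% of all genes that were lower in satellite wells, 7 of 8 genes were lower in the tendon or fibrous list, 5 of 8 in the perivascular list, 5 of 11 in the fibroblast or progenitor list and 1 of 6 in the endothelial list, with 0 higher in each. Without the genes that defined the fibrous and Rgs5 wells, the counts were 4 of 5 for the tendon or fibrous list and 4 of 7 for the perivascular list. The 5 Schwann cell genes, all with fewer than 20 UMIs, had 13 UMIs in satellite wells and 22 in the others, a pooled ratio of 4.22 (1.95 to 8.75), but lay in 2 of 65 and 17 of 438 wells, and 11 of the 13 came from 1 well that also held Rgs5. The 3 satellite wells that were fibrous held the tendon list at 180 UMIs per 10000. All 4 hemoglobin genes were higher, but 13 of 65 satellite wells held any, and 1 well with 3818 hemoglobin UMIs per 10000 gave most of them.

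Other genes were ranked by how they went with the satellite genes. Against all other wells, 14.8% of 3793 genes were higher by 2-fold or more and 8.52% lower in the 19 wells with 2 or more satellite genes, so a ratio of that size is common in so few wells. The 10 highest ratios were those of Cdh15 and Pax7, which defined the wells, and of Fosl2 (15.4), Gm17056 (13.1), Cxcl1 (12.8), Peg3 (12.8), Clmn (12.3), Gem (10.8), Errfi1 (10.1) and Flnc (8.84). Single wells gave 13 of the 20 Gm17056 UMIs and 17 of the 30 Cxcl1 UMIs. Flnc encodes a muscle filamin, Fosl2 an AP-1 transcription factor and Cxcl1 a chemokine, and Fosl2, Cxcl1, Gem and Errfi1 are among the genes that stimuli induce rapidly.

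The genes most like each member were ranked by phi among 6551 genes. For Pax7 they were Myf5 (0.35), Tenm4 (0.32), Drp2 (0.30), Flnc (0.30) and Cxcl1 (0.29). For Myf5 they were Pax7, Fgfr4 (0.32), Cdh15 (0.26), Fosl2 and Osgin1. For Cdh15 they were Peg3 (0.36), Errfi1 (0.32), Snhg12, Prox1 and Atf3, and Peg3 was in 14 of the 24 Cdh15 wells. For Myod1, with 10 wells, they were Clcn5 (0.29), Chrnb1 (0.29), Prox1, Cox6b2 and Esr1, on 3 or 4 shared wells each. Calcr was under the minimum of 10 wells.

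For Chodl all 5 were genes of the fibrous wells. They were Ptx4, a pentraxin (0.38), Col22a1, a collagen of tissue junctions such as the one between muscle and tendon (0.36), Cilp, a matrix protein of cartilage and tendon (0.36), Tnmd (0.30) and Postn, the matrix protein periostin (0.30). Over all 503 wells the fibrous wells outnumber the satellite wells, and the satellite genes ranked lower by this measure, with phi 0.25 for Pax7 and 0.20 for Cdh15. Ptx4 was in 66 of 184 fibrous wells without a satellite UMI and in 4 of 62 satellite wells that were not fibrous, and Col22a1 in 55 and 3.

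The fibrous wells without a satellite UMI were split by whether they held a Chodl UMI. Between the 74 fibrous wells with Chodl and the 110 without, 6.24% of 1249 genes were higher by 2-fold or more and 9.69% lower. Col22a1 had 120 UMIs in 42 of 74 wells with Chodl and 27 in 13 of 110 wells without, a ratio of 5.71 (3.74 to 9.03). Ptx4 (3.43, 2.23 to 5.405), Postn (2.52, 2.05 to 3.13) and Scx, the tendon transcription factor (2.12, 1.18 to 3.90), were higher too. Col22a1, Ptx4 and Postn had been chosen by phi with Chodl over wells that include these, so their ratios describe that choice. Of the 5 tendon genes outside the class genes, Scx was thus higher and 3 were lower, Chad, Comp and Mkx, another tendon transcription factor, which was at 0.48 (0.155 to 1.30) with 6 and 16 UMIs. Cilp (1.82), Kera (1.66), Thbs4 (1.61) and Tnmd (1.47) were above 1 but under 2-fold. The cartilage and tendon matrix genes Chad (0.33) and Comp (0.41), the interstitial collagen Col3a1 (0.23), Ly6a, which encodes Sca1 (0.24), and Gsn (0.35) were lower, and Fmod was at 0.62. The wells with Chodl were deeper, with a median of 885 UMIs against 648, and these ratios are of levels per 10000. Of the 74 wells, 26 held a single Chodl UMI, so the wells without may include cells whose Chodl was missed. Whether Chodl marks a separate group of fibrous cells was not tested.

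Col22a1, Ptx4, Cilp, Tnmd and Postn are the genes most like Chodl by phi over wells that include these, so their values describe that choice. Chodl was in 42 of 55 fibrous wells with a Col22a1 UMI (76.4%) and in 32 of 129 without (24.8%), a difference of 51.6 points (35.8 to 64.2). In points, it was 61.6 (34.8 to 79.4) among the 2-day wells, 43.0 (11.9 to 64.7) among the 6-week wells and 48.7 (17.01 to 70.4) among the 13-week wells. For Ptx4 the shares were 68.2% and 24.6%, and the 3 time points gave differences of 47.8, 48.3 and 30.5 points, the last with an interval of -0.796 to 56.2. For Chad the shares were 27.6% and 49.1%, a difference of -21.4 points (-35.2 to -6.40). Fibrous wells with Col22a1 had a median of 894 UMIs and those without 673.

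The Chodl wells of the satellite side and of the fibrous side differed in many other genes. Between the 33 and the 74 wells, chosen by these very classes, 26.1% of 683 genes were higher by 2-fold or more and 30.3% lower. Peg3 had 34 UMIs on the satellite side and 3 on the fibrous side, Errfi1 had 51 and 3, and Hes1, a Notch target, had 19 and 9. Col22a1 had 1 UMI and 120, Cilp 5 and 217, Postn 6 and 267, Ptx4 2 and 80, and Scx 0 and 33. Acta2 was at 2.67 and 2.59 UMIs per 10000, a ratio of 1.03 (0.391 to 2.47).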

How the data were processed

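Single Tomato+ cells were sequenced from 3 time points on 2 plates by a plate-based 3′ Drop-seq method. The authors aligned reads to mm10 (GRCm38) and deposited 2 matrices a plate, with the counts of UMIs and of reads for each gene in each well, not normalized. The submitters' processing notes name bcl2fastq 2.18.0.12, Picard 2.9.3 and STAR 2.5.4a. Wells took their time point from the deposited sample table, in which 168 wells of the 6-week plate have none and were not used. Wells with 200 or more genes were kept, no doublet caller was run and no well was removed as a doublet. A gene listed for 1 plate counted as 0 on the other. Shares of wells, pooled UMIs per 10000, exact intervals at 95% and expected shares after thinning to 300 UMIs were computed with Python 3.11.15, numpy 2.4.6, pandas 2.3.3 and scipy 1.17.1. An interval of a difference combined the exact intervals of both shares, and that of a ratio was the exact conditional binomial one. Ratios, phi and thinning were tested on simulated data. A share of 0 allows up to 3 counts of the total.

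The genes, the 11 marker lists and the classes of wells were chosen with earlier results of these data known. Named were the 6 genes, the list genes, for each of the 6 seen in 10 or more wells the 5 genes with the highest phi, and the 10 highest ratios among genes with 20 or more UMIs and seen in 5 or more of the wells with 2 or more satellite genes. Gene positions are from GENCODE M21. Alternatives changed the gene minimum, the unit, the depth, the classes and the wells included.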

Additional observations from a re-analysis of the deposited data

Results flagged for a closer look

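Chodl was also seen in wells that were not analyzed. Of 97 assigned wells with under 200 genes, 8 held Chodl, with 8 UMIs in all, and 3 of the 8 were fibrous by the same threshold. In the same wells Pax7 had 1 UMI and Myf5, Myod1, Cdh15 and Calcr had 0.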

How the results depend on the processing

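No paired analysis was possible because each time point was 1 pool of mice and no sample numbers are shared between groups. Of 80 alternative values for 6 differences, 0 changed direction and 71 stayed within the interval of the reported value. Thinning to 300 UMIs, which lowers every share, gave 10.5 points for satellite wells outside against inside the fibrous wells, 14.9 for Chodl in satellite wells against others and 23.1 for Chodl in fibrous wells against others. Calling wells fibrous from 1 UMI gave 6.70 points for satellite wells and 24.3 for Chodl. Requiring 2 or more satellite genes gave 6.01 points for the fibrous contrast and 51.4 for Chodl. Requiring 2 Chodl UMIs, an alternative chosen after seeing the data, gave 13.0 points in satellite wells and 24.9 in fibrous wells, and leaving Pax7 or Cdh15 out of the satellite genes, also chosen then, moved no difference beyond its interval. The interval of the Rgs5 difference took in 0 without the wells of both classes, without each time point (lower ends -1.53, -0.56 and -1.01) and without Cdh15 among the satellite genes. The 13-week minus 2-day difference in satellite wells ranged from -7.45 to -2.03 points, the latter without Cdh15, and the Cdh15 difference in Pax7 wells from 8.66 to 22.5. Read counts detected Chodl in 123 wells in place of 122. At a median of 727 UMIs per well a gene near 1 UMI is missed in many cells, so shares are lower bounds on expressing cells except where free RNA adds UMIs. Strain, doxycycline and age cannot be told apart from time at 13 weeks, nor plate and age at 6 weeks.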

Other observations

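Immune genes gave 4 UMIs in 2 satellite wells. Endothelial genes stood at 21.3 UMIs per 10000 in the 8 satellite wells with Rgs5 and at 2.82 in the 54 with neither Rgs5 nor fibrous genes. Cxcl1 had 35 UMIs in 11 of the 33 Chodl wells on the satellite side, 17 of them in 1 well, and 1 UMI in the 74 on the fibrous side.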
